A study of Mus musculus with 12 samples.

Results

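The cystatin genes examined here are 10 genes taken by their annotated symbols: Cst3, Cst6, Cst7, Cst8, Cst9, Cst10, Cst11, Cst12, Cst13 and Cstdc1. Each platform measured 9 of them, out of 19938 genes on the adult arrays and 18194 on the newborn arrays. Cst8 has no probe set paired with it by the annotation used and was not analysed here. The set was selected on measured values: Cst9 and Cstdc1 were among the genes that differed most between adult Foxl2 mutant and wild-type ovaries, and the family was listed around them. That contrast is therefore described without a test.

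RNA of whole gonads was measured on arrays in 12 samples. Foxl2 encodes a forkhead factor made in granulosa cells, the somatic cells around the oocyte. The 8 adult arrays were each made from 1 animal of 8 weeks: 3 ovaries labelled Foxl2 flox/flox x CreEBD (called mutant ovaries here), 3 wild-type testes, of which 0.25 of an organ was used, and 2 wild-type ovaries. The labels state neither the promoter that drives the Cre nor the time of deletion. The 4 newborn arrays came from postnatal day 3 (P3), with 2 pools of Foxl2 KO ovaries and 2 pools of wild-type ovaries, each pool holding more than 10 females. Adult levels are log2 values made with RMA, a method that brings arrays to a common scale and summarises the probes of a probe set. P3 levels are MAS5 signals on a linear scale. Array number limits the precision, and in bulk RNA fewer cells of a type and less RNA per cell cannot be told apart.

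Cystatins are small proteins, most of them secreted, that bind and block cysteine proteases such as the cathepsins of the lysosome. Several mouse cystatin genes sit side by side on chromosome 2, and a subgroup of them, named after Cres (Cst8), is expressed mainly in the reproductive tract and lacks sequence features with which the typical cystatins block their targets. Cst9 encodes testatin, first found in the supporting cells of the fetal testis at the time when testis development begins. In the RefSeq annotation of assembly GRCm38.p6, 9 genes follow each other without another gene between them: Cstl1, Cst11, Cstdc1, Cst12, Cst8, Cst13, Cst9, Cstdc2 and Cst3. Of the 10 members 7 lie in this run. Cst10 and Cst7 lie elsewhere on chromosome 2, and Cst6 on chromosome 19.

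Cst9, Cstdc1 and Cst12 stood far above wild-type ovary in the mutant ovaries. The 250 bases before their annotated starts are shown, since no other member stood as far above. The bases are from RefSeq (GRCm38.p6, 5′ to 3′), with a match to any searched motif in capitals.
Cst9 (chr2:148834897-148835146, + strand): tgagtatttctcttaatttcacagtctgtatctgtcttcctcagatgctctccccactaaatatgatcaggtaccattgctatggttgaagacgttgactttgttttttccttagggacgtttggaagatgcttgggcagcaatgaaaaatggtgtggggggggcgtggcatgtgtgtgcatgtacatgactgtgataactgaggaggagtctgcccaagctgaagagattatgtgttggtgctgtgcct
Cstdc1 (chr2:148781759-148782008, + strand): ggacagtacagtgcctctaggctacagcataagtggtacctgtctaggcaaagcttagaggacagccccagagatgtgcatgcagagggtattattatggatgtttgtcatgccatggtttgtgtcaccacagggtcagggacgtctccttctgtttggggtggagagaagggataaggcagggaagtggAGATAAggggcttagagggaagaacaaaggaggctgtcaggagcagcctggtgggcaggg
Cst12 (chr2:148789115-148789364, + strand): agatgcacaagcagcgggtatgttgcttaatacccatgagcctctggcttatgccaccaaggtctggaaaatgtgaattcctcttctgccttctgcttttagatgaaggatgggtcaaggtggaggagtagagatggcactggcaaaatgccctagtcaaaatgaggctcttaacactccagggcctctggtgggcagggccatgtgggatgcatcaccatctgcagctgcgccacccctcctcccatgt
The forkhead motif was searched as GTAAACA on both strands. The SOX motif was searched likewise with the letters AACAAT, and the core bound by DMRT1 with the letters ACANTGT. The SF-1 motif was searched on both strands with the letters AAGGTCA, and the GATA motif with the letters AGATAA. The TATA box was searched on the gene's strand alone with the letters TATAAA. The windows of Cst9 and Cst12 held none of the 6. The window of Cstdc1 held 1, the GATA letters, beginning 60 bases before the start, where they overlapped no other motif searched. Of 32851 promoter windows of the same length in the table, 9.99% held the GATA letters, 9.42% the SOX letters, 6.47% the DMRT1 core, 4.08% the SF-1 letters, 3.17% the forkhead letters and 7.59% the TATA box. A match is a description of the letters and not a binding site.

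Foxl2 itself set the labels apart: its level was 5.81, 6.04 and 5.73 in the mutant ovaries, 5.22 to 5.38 in the testes, and 8.75 and 8.81 in the wild-type ovaries. Mutant ovary was lower than wild-type ovary, at -2.92 ± 0.13 (SE, limma, adjusted p = 5.08e-07).

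Cst9, the testatin gene, had levels of 8.42, 8.82 and 8.52 in the mutant ovaries, 8.04, 8.12 and 8.01 in the testes, and 3.39 and 3.07 in the wild-type ovaries. All 6 mutant ovary and testis arrays were high and both wild-type ovaries were low, with no overlap between any of the 3 groups. The mutant ovaries averaged 8.59 ± 0.21 (SD, n = 3), the testes 8.05 ± 0.06 (n = 3) and the wild-type ovaries 3.23 ± 0.22 (n = 2). The difference of mutant from wild-type ovary was 5.36 ± 0.15 (SE) on the log2 scale, the highest of 19938 genes. That of testis from wild-type ovary was 4.82 ± 0.15, and mutant ovary stood above testis by 0.53 ± 0.14. These Cst9 values carry no p, since the mutant and wild-type ovary arrays drew attention to the gene.

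Cstdc1, which encodes a cystatin domain protein, had levels of 7.80, 7.88 and 7.86 in the mutant ovaries, 5.31, 5.55 and 5.48 in the testes, and 3.12 and 3.02 in the wild-type ovaries. The 3 groups lay apart in that order. Mutant ovary was above wild-type ovary by 4.78 ± 0.13 and testis by 2.38 ± 0.13 (SE). The excess of mutant ovary over testis was 2.40 ± 0.12, so that Cstdc1, unlike Cst9, was near the midpoint of the other groups' levels in testis. For Cstdc1 too, no p is given on the adult arrays.

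Cst12, also named CRES3 as a member of the Cres subgroup, had levels of 10.33, 10.51 and 10.32 in the mutant ovaries, 7.68, 7.97 and 7.86 in the testes, and 5.74 and 6.32 in the wild-type ovaries. The groups again did not overlap, although the wild-type ovaries differed from each other by more than the arrays of either other group did. The mutant ovaries were above wild-type ovary by 4.36 ± 0.17 (SE), the twelfth highest difference of all genes. Testis was higher than wild-type ovary by 1.81 ± 0.17 (limma, adjusted p = 4.44e-06), and mutant ovary was higher than testis by 2.55 ± 0.15 (limma, adjusted p = 9.40e-08). Both comparisons share arrays with the contrast that drew attention to the family. Cst12 was high in that contrast too, so these p-values are not independent of the choice.

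**Figure D1:**
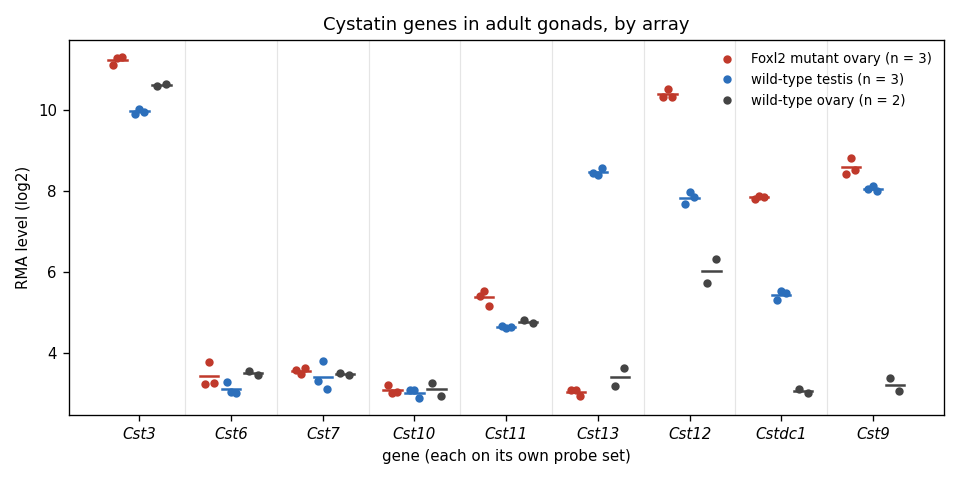
RMA levels (log2) of the 9 cystatin genes on the 8 adult arrays: points are arrays, bars are group means, and each gene is read on its own probe set. Cst9, Cstdc1 and Cst12 are high in mutant ovaries, Cst13 is high in testes alone, and Cst6, Cst7 and Cst10 stay between 2.89 and 3.80 in all groups.

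Cst13, known as a gene of the male germ cells in mouse testis, had levels of 3.09, 3.09 and 2.96 in the mutant ovaries, 8.45, 8.39 and 8.57 in the testes, and 3.19 and 3.65 in the wild-type ovaries. The 3 testes were high and all 5 ovaries were low. Testis exceeded wild-type ovary by 5.05 ± 0.16 (SE, limma, adjusted p = 7.94e-10), and mutant ovary was below testis at -5.42 ± 0.14 (adjusted p = 1.60e-10). The difference of mutant from wild-type ovary was -0.37 ± 0.16. Cst13 lies next to Cst9 among the measured genes of the run, so that neighbours with high levels in testis differed in the mutant ovary. Spermatid markers showed the same split as Cst13: the mean of 8 such genes was 3.75 to 3.90 in mutant ovaries, 11.04 to 11.17 in testes and 3.99 to 4.03 in wild-type ovaries. The part of germ cells in the Cst13 values was not tested.

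Cst3 encodes cystatin C, a widely expressed secreted inhibitor of cathepsins. Its levels were 11.11, 11.29 and 11.30 in the mutant ovaries, 9.91, 10.02 and 9.96 in the testes, and 10.58 and 10.64 in the wild-type ovaries. The order was mutant ovary, wild-type ovary, testis, without overlap. Mutant ovary was above wild-type ovary by 0.62 ± 0.09 (SE). In testis Cst3 was lower than in wild-type ovary, at -0.65 ± 0.09 (limma, adjusted p = 1.21e-04), and mutant ovary was higher than testis by 1.27 ± 0.08 (adjusted p = 2.02e-07).

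Cst11, a gene of the Cres subgroup known from the epididymis, had levels of 5.42, 5.55 and 5.17 in the mutant ovaries, 4.67, 4.63 and 4.64 in the testes, and 4.82 and 4.75 in the wild-type ovaries. The mutant ovaries were the highest, 0.59 ± 0.14 (SE) above wild-type ovary and 0.73 ± 0.13 above testis (limma, adjusted p = 4.13e-04 for mutant ovary against testis). The difference of testis from wild-type ovary was -0.14 ± 0.14 and did not pass (adjusted p = 0.431, 95% interval -0.45 to 0.18). Of 10 measured epididymis markers none passed in mutant against wild-type ovary, where 16.2% of all genes did. The markers' means per array were 3.02 to 3.13 in mutant ovaries and 3.11 to 3.18 in wild-type ovaries.

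Cst6, the skin cystatin E/M, Cst7, the cystatin F of leukocytes, and Cst10, known from cartilage, lay between 2.89 and 3.80 on all 8 arrays, under the array medians of 4.83 to 4.94. Their differences of mutant from wild-type ovary were -0.08 ± 0.17, 0.08 ± 0.18 and -0.01 ± 0.13 (SE). Against wild-type ovary, testis gave -0.40 ± 0.17 for Cst6 (limma, adjusted p = 0.0696, 95% interval -0.78 to -0.01), -0.08 ± 0.18 for Cst7 (0.723) and -0.08 ± 0.13 for Cst10 (0.622). Cst6 passed where the fit held testis and wild-type ovary alone (adjusted p = 0.028) and after quantile normalization (0.0453). Mutant ovary against testis gave 0.31 ± 0.15, 0.16 ± 0.16 and 0.07 ± 0.12, with adjusted p of 0.104, 0.413 and 0.626. Cst7 passed there without testis 2 (0.36, adjusted p = 0.0273), the array with its highest testis value, 3.80. Macrophage markers averaged 6.42 to 7.01 in mutant ovaries, 4.75 to 4.83 in testes and 6.07 to 6.11 in wild-type ovaries. In mutant against wild-type ovary 3 of 8 rose, where 9.55% of all genes did.

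Of the 7 members tested on the adult arrays, testis was higher than wild-type ovary in 2 and lower in 1, where 24.4% of all genes were higher and 35.9% lower, 60.3% in either direction. Mutant ovary was higher than testis in 3 and lower in 1, where 37.5% of all genes were higher and 24.3% lower, 61.8% in either direction. The median difference of these 7 was -0.08 in testis against wild-type ovary, beside -0.15 over all genes, and 0.31 in mutant ovary against testis, beside 0.14 over all genes. These comparisons share the testis arrays. In mutant against wild-type ovary the median of the 9 measured members was 0.59, beside -0.03 over all genes, 6 of the 9 being above 0. That median and count include Cst9 and Cstdc1, which this contrast brought to attention, so they do not measure a shift of the family. The other members stood at 4.36, 0.62, 0.59, 0.08, -0.01, -0.08 and -0.37. No filter on low values was used, so every measured member was fitted.

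**Figure D2:**
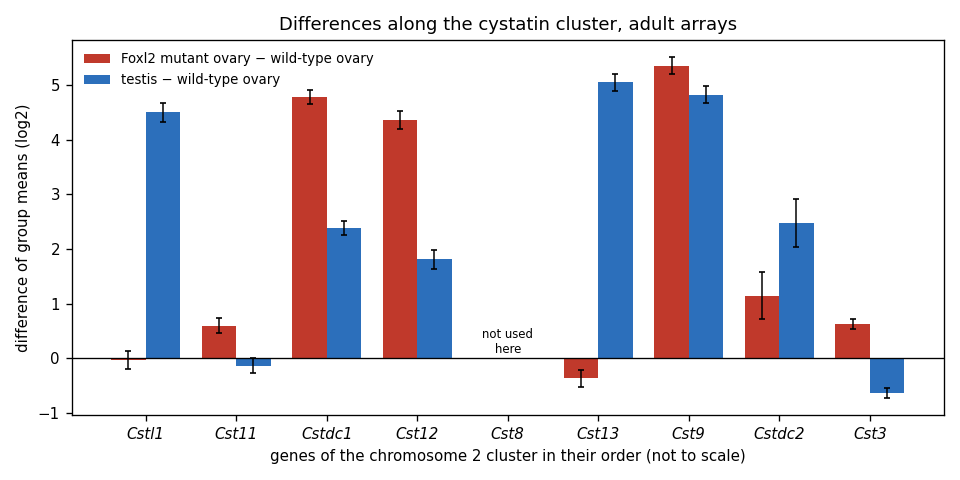
Differences of group means (log2, bars ± SE) for the genes of the chromosome 2 run in their annotated order: mutant ovary minus wild-type ovary in red and testis minus wild-type ovary in blue. Cstdc1, Cst12 and Cst9 have tall red bars of 4.78, 4.36 and 5.36, whereas Cstl1 and Cst13 have tall blue bars of 4.50 and 5.05 and red bars near 0 or below it.

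The run holds 2 measured genes that are not members. Cstl1, at its edge, had levels of 3.21, 3.14 and 3.24 in the mutant ovaries, 7.88, 7.84 and 7.46 in the testes, and 3.43 and 3.03 in the wild-type ovaries, the same testis-only pattern as Cst13. Testis was above wild-type ovary by 4.50 ± 0.17 (SE, limma, adjusted p = 3.64e-09), and the mutant ovaries differed by -0.03 ± 0.17 (adjusted p = 0.933). Cstdc2 had levels of 4.75, 4.88 and 4.92 in the mutant ovaries, 5.04, 6.51 and 7.0 in the testes, and 3.52 and 3.89 in the wild-type ovaries. The testes were spread widely for Cstdc2. Testis was higher by 2.48 ± 0.44 (adjusted p = 5.59e-04), whereas 1.15 ± 0.44 in mutant ovary did not pass (adjusted p = 0.111). The epididymis markers averaged 3.20, 3.10 and 3.12 in the same 3 testes, all under the array medians, and their part in the spread of Cstdc2 was not tested.

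Outside the run, the 8 nearest measured genes on either side were counted, 16 in all. In mutant against wild-type ovary 1 of the 16 rose and 1 fell, where 9.55% of all genes were higher and 6.66% lower, 16.2% in either direction. The riser was Acss1, a mitochondrial acetyl-CoA synthetase (1.70 ± 0.25, SE, limma, adjusted p = 9.93e-04). The faller was Cd93, a receptor of endothelial cells (-1.24 ± 0.33, adjusted p = 0.028), which stood at 7.36 and 8.85 in the wild-type ovaries. In testis against wild-type ovary 1 was higher, the nuclear transport gene Nxt1 (1.93 ± 0.14, adjusted p = 6.68e-07), and 7 were lower. The share over all genes was 24.4% higher and 35.9% lower.

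Over the 8 adult arrays, the named genes with the profiles most like Cst9 were Birc2, Synj2 and Vdac3, with Pearson's r of 0.995, 0.994 and 0.993. For Cstdc1 they were Eps15, Wnk3 and Clec12b (0.998, 0.997 and 0.997), and for Cst12 Slc27a6, Kcnk6 and Slc52a3 (0.994, 0.991 and 0.990). Clec12b, a lectin-like receptor gene, had levels of 8.95, 8.84 and 9.09 in the mutant ovaries, 6.65, 6.75 and 6.73 in the testes, and 3.90 and 3.99 in the wild-type ovaries, the order seen for Cstdc1. Cst13 was most like Eid3, Fam170a and Ccdc33 (at least 0.999 each), and Cst3 most like Zfp251, Lasp1 and Unc119 (0.998, 0.998 and 0.995). The arrays fall into 3 groups, so an r of this size reflects the order and spacing of 3 group means and is given as a description.

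Markers of the supporting cells moved on the same arrays. Of 10 Sertoli cell markers 8 rose and 0 fell in mutant against wild-type ovary, where 9.55% of all genes rose and 6.66% fell. The markers' mean per array was 8.25 to 8.61 in mutant ovaries, 6.72 to 6.83 in testes and 5.75 to 6.18 in wild-type ovaries. In testis against wild-type ovary 7 of the 10 were higher and 1 was lower, where 24.4% of all genes were higher and 35.9% lower. The lower 1 was Amh, at 4.21, 4.18 and 4.41 in the testes and 9.05 and 6.03 in the wild-type ovaries. Sox9, the transcription factor of Sertoli cell fate, had levels of 9.56, 9.38 and 9.50 in the mutant ovaries, 6.65, 6.60 and 6.34 in the testes, and 5.89 and 5.71 in the wild-type ovaries. Of 8 granulosa cell markers 6 fell and 1 rose in mutant against wild-type ovary. Their means were 7.35 to 7.57 in mutant ovaries, 5.71 to 5.83 in testes and 9.32 to 10.05 in wild-type ovaries. Foxl2 itself is on this list and is 1 of the 6, so its fall follows from the genotype and it also enters the means. The part of these cell types in the cystatin values was not tested, and RMA gives no marker a value of 0. The 2 wild-type ovaries also differed in oocyte markers, at means of 7.14 and 5.51. Without either one, the difference of mutant from wild-type ovary was 5.20 or 5.51 for Cst9, 4.73 or 4.83 for Cstdc1, and 4.07 or 4.65 for Cst12.

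The proteases that typical cystatins block were counted on the same arrays. Of 11 cysteine protease genes, 10 cathepsins and the legumain gene Lgmn, 10 were lower in testis than in wild-type ovary and 0 were higher. The share over all genes was 35.9% lower and 24.4% higher. The list's median was -2.01 beside -0.15 over all genes. Ctsz, cathepsin Z, stood at -3.38 ± 0.12 (SE, limma, adjusted p = 2.64e-09), Ctsb, cathepsin B, at -2.82 ± 0.11 (5.80e-09) and Ctsc, cathepsin C, at -2.46 ± 0.21 (2.38e-06). Ctsw was the 1 that did not pass (-0.29 ± 0.18, adjusted p = 0.197). Against testis, mutant ovary was higher in 10 of the 11 and lower in 0, where 37.5% of all genes were higher and 24.3% lower. The median was 2.31 beside 0.14.

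In mutant against wild-type ovary 1 of the 11 proteases rose and 1 fell, where 9.55% of all genes rose and 6.66% fell. Ctso, cathepsin O, had levels of 7.53, 7.50 and 7.44 in the mutant ovaries and 6.82 and 6.57 in the wild-type ovaries, a rise of 0.80 ± 0.13 (SE, limma, adjusted p = 0.00216). Ctsz had levels of 9.56, 9.77 and 9.79 in the mutant ovaries and 10.30 and 10.12 in the wild-type ovaries, a fall of -0.50 ± 0.12 (adjusted p = 0.0193). The list's median was 0.28, beside -0.03 over all genes. With wild-type ovary 1 left out, 4 of the 11 rose and 0 fell. Ctsz also lost its call without mutant 1, with the ovaries alone in the fit and with array weights, where 0 of the 11 fell. Without wild-type ovary 2, mutant 2 or mutant 3, 2 of the 11 rose. Ctsh, cathepsin H, missed the threshold with all arrays (0.68 ± 0.21, adjusted p = 0.0557). Macrophages are rich in cathepsins, and the macrophage markers given above were likewise lowest in testis. Their part in the protease values was not tested.

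**Figure D3:**
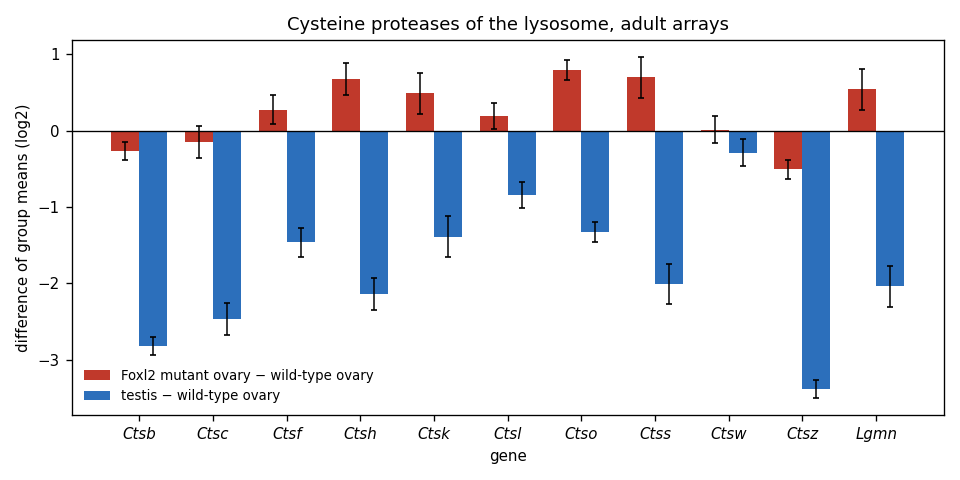
Differences of group means (log2, bars ± SE) for the 11 cysteine protease genes: mutant ovary minus wild-type ovary in red and testis minus wild-type ovary in blue. The blue bars all lie below 0, 10 of them past the threshold, while the red bars run from -0.50 to 0.80.

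Of 16 other genes of the cystatin superfamily or with a cystatin-like fold, 1 rose and 1 fell in mutant against wild-type ovary. The share over all genes was 9.55% higher and 6.66% lower. Rarres1, a relative of latexin, had levels of 5.58, 6.12 and 6.55 in the mutant ovaries and 3.39 and 3.65 in the wild-type ovaries, a rise of 2.57 ± 0.26 (SE, limma, adjusted p = 9.12e-05). Kng1, a kininogen gene of the liver, fell by 0.36 on the log2 scale (adjusted p = 0.0479) at levels of 2.78 to 2.86 in mutant ovaries and 3.29 and 3.06 in wild-type ovaries. With any 1 mutant array or wild-type ovary 1 left out, 0 of the 16 were lower, and 2 were without wild-type ovary 2. The count was also 0 without the intensity trend, with dim genes left out, after quantile normalization, with the ovaries alone in the fit and with array weights. The count higher ran from 0 to 2 over the 7 settings that left no single array out. Cstb, the intracellular cystatin B, gave 0.15 ± 0.18 (adjusted p = 0.65). In testis against wild-type ovary 3 of the 16 were higher (Cstl1, Cstdc2 and Rarres1) and 6 were lower, where 24.4% of all genes were higher and 35.9% lower. Among the 6 were Fetub, the fetuin-B gene (-2.43 ± 0.31, adjusted p = 5.70e-05), and Cstb (-1.40 ± 0.18, 5.72e-05). Of the 6, Stfa2, Stfa3, Hrg and Kng1 lay at or under 3.29 on every adult array. The count of 6 lower was 3 without testis 1 or without wild-type ovary 1, 4 without any other single array, 2 with array weights, 3 without the intensity trend, and 4 after quantile normalization or with the replicate block. With dim genes left out it was 0, and so was the count higher.

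The P3 arrays come from other animals, another platform and a knockout in place of the floxed allele. The members were listed for their adult values, with earlier P3 results of these data also known. Foxl2 had signals of 186.4 and 153.7 in the KO pools and 814.5 and 829.9 in the wild-type pools, at -2.18 ± 0.21 on the log2(signal + 16) scale (SE, limma, adjusted p = 0.0238). Of the 9 measured members 1 rose and 0 fell in KO against wild-type pools, where 0.137% of all genes rose and 0.187% fell, 0.324% in either direction. The member was Cst9, the testatin gene. Its MAS5 signal was 1137.6 and 1356.1 in the KO pools and 317.0 and 275.8 in the wild-type pools, so that both KO pools lay above both wild-type pools. On the log2(signal + 16) scale the difference was 2.01 ± 0.18 (SE, n = 2 and 2, limma, adjusted p = 0.0208), the 21st highest of 18194 genes. The call rests on all 4 arrays: without any single pool the difference was 1.89 to 2.14 and the adjusted p was 0.0546 to 0.412, and without the intensity trend, where 0 of all genes passed, it was 0.17.

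Cst12 and Cstdc1 leaned the same way at P3 without passing. The signal of Cst12 was 20358.7 and 22070.4 in the KO pools and 13377.5 and 9593.6 in the wild-type pools, a difference of 0.90 ± 0.18 (SE, limma, adjusted p = 0.13, 95% interval 0.47 to 1.34). With dim genes left out before the fit, it passed (adjusted p = 0.0349). The signal of Cstdc1 was 319.7 and 514.9 in the KO pools and 244.6 and 199.3 in the wild-type pools, a difference of 0.83 ± 0.30 (adjusted p = 0.428, 95% interval 0.11 to 1.55). For both genes every KO pool was above every wild-type pool. The same held for Cst7, at signals of 13.2 and 12.8 in the KO pools and 8.5 and 10.7 in the wild-type pools. With 2 pools against 2 such a split says little, and its share over all genes was not counted. Levels are not set against the adult arrays, which were made and scaled differently, and the difference between the ages was not tested.

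**Figure D4:**
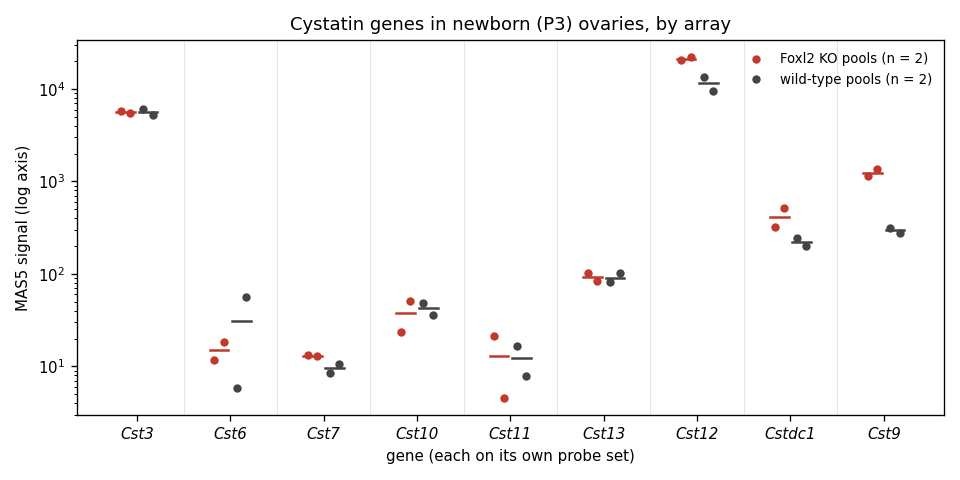
MAS5 signals (log axis) of the 9 cystatin genes on the 4 P3 arrays: points are pools and bars are group means, with KO pools left of wild-type pools. For Cst9, Cst12 and Cstdc1, and at low signals for Cst7, both KO pools lie above both wild-type pools. For Cst3 and Cst13 the pools overlap.

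The other members gave no call at P3. Cst3 had signals of 5781.6 and 5449.5 in the KO pools and 6131.2 and 5205.2 in the wild-type pools, a difference of -0.01 ± 0.13 (SE, limma, adjusted p = 0.991, 95% interval -0.32 to 0.30). Cst13 had signals of 101.2 and 82.8 in the KO pools and 81.6 and 101.1 in the wild-type pools (0.01 ± 0.34, adjusted p = 0.996, 95% interval -0.80 to 0.82). Cst6, Cst7, Cst10 and Cst11 had signals of at most 56.3 on all 4 arrays, under the array medians of 116.6 to 126.8, and their differences were -0.37, 0.18, -0.17 and -0.02. The median difference of the 9 members was 0.01, beside -0.005 over all genes.

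None of 9 measured Sertoli cell markers passed at P3 (limma, 6 at an unadjusted p under 0.05), and their means on the log2(signal + 16) scale were 8.80 and 8.73 in the KO pools and 8.37 and 8.02 in the wild-type pools. The markers went both ways, with 5 of the 9 above 0. Dmrt1, a factor that maintains male fate, had signals of 397.9 and 288.6 in the KO pools and 66.2 and 13.2 in the wild-type pools. Amh and Ptgds were also among the 6 and were lower in the KO pools. On the adult arrays Amh was the listed marker that was lower in testis than in wild-type ovary. Amh had signals of 59.8 and 21.0 in the KO pools and 304.4 and 141.3 in the wild-type pools. Of 8 granulosa cell markers 3 fell and 0 rose, where 0.187% of all genes fell and 0.137% rose. The knocked-out Foxl2 is 1 of the 3. None of the 11 proteases passed (1 at an unadjusted p under 0.05), nor any of 11 other cystatin genes (2 at an unadjusted p under 0.05), with medians of -0.04 and -0.09. The part of the cell types in the P3 cystatin values was not tested.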

How the data were processed

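Gene expression was measured on arrays of total RNA in 12 mouse gonads or pools. Adult RNA (300 ng) was labelled by the GeneChip WT protocol and P3 RNA (1 µg) as for CodeLink arrays, per the labels' protocols. MAS5 and the names of the P3 probe sets belong to Affymetrix arrays. The conflict thus concerns the labelling protocol, and it was not resolved. The deposited adult values are log2 levels made by the authors with RMA in Affymetrix Expression Console, and at P3 the deposited unit is the MAS5 signal, a linear intensity, both per the submitters' processing notes. No version of either is stated there.

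Genes came from the platform annotation, with symbols updated through RefSeq (GRCm38.p6). On the adult array 21789 of 35557 probe sets had a single gene, 1621 had several and 12147 had no name here. Of the P3 probe sets, 34958 of 45101 had a single gene, 932 had several and 9211 had no name here. The probe set with the highest mean stood for a gene; each measured member had 1. Of 10 members 9 matched on each platform. Named genes were the members, genes of fixed lists, neighbours past the threshold and the 3 genes most like each member whose adult group means differed by over 1, leaving out predicted genes. Members, lists and motifs were chosen with earlier results of these data known.

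The 8 adult arrays were fitted together (lmFit, eBayes with trend, R 4.3.3, limma 3.58.1) and the 4 P3 arrays alone as log2(signal + 16), which understates changes of dim genes. Tests were two-sided, with p-values adjusted by Benjamini-Hochberg across each platform's genes and a threshold of 0.05. The fits were tested on simulated data. Alternatives changed the block, trend, filter, probe sets, normalization, arrays, weights and pseudocount.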

Additional observations from a re-analysis of the deposited data

How the results depend on the processing

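On the adult arrays the differences of Cst9, Cstdc1 and Cst12 kept their sign in all 3 comparisons under every alternative run. Mutant minus wild-type ovary ranged from 5.20 to 5.51 for Cst9, 4.73 to 4.83 for Cstdc1 and 4.07 to 4.65 for Cst12 when 1 array was left out. The counts below are of genes past the threshold. For mutant against wild-type ovary 3232 genes passed, 1731 with the ovaries alone in the fit, and 2540 to 3760 without 1 array. For testis against wild-type ovary 12028 passed, and 8000 with dim genes left out, a filter that removes Cst13 and so leaves 1 tested member higher in place of 2. Cst6 made it 2 members lower after quantile normalization or with the 2 groups alone. For mutant ovary against testis the filter likewise left 0 members lower, Cst13 not being fitted.

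At P3 59 genes passed, 186 with dim genes left out, 305 with the replicate block, 0 without the intensity trend and 0 to 22 without 1 array, which assumes that a lone pool varies like the other group. The members called higher were 1, then 2, 2 and 0 in those settings, and 0 without 1 array. Cst9 was at 2.01 with an adjusted p of 0.17 without the trend, and at 1.89 to 2.14 without 1 array (adjusted p 0.0546 to 0.412). With the replicate block Cst9 had an adjusted p of 0.0014 and Cst12 of 0.0229, at 0.903. The numbers were not taken to pair the samples, since deviations of same-numbered arrays correlated at -0.003 to 0.079 on the adult arrays and 0.042 at P3. The block moved no count of calls on the adult arrays by over 1.5 times (2674, 11433 and 12136 genes). The cause of these shifts was not tested. Pools of 2 against 2 limit what P3 can show.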
